A study of Rattus norvegicus with 6 samples.

Results

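Connexins are the proteins of gap junctions, the channels that join the cytoplasm of neighbouring cells. The connexin genes described here are Gjd2, Gja5, Gja4, Gja1, Gjb1, Gjb2 and Gjb5. They are the 7 genes, of 13903 named on the array, whose probes were tied to these symbols by a RefSeq transcript accession and which formed the chosen list. Each had 1 probe, printed as 1 spot. Their RNA was compared between islets of adult rats and islets at postnatal day 10 (P10). The adult islets came from 3 male rats, 1 per array, and the P10 islets from 3 pools of pups, also 1 per array. The strain, the adult age, the sex of the pups and the number of pups per pool are not given in the labels. All islets had been freed with collagenase, and their total RNA was labelled with Cy3 and hybridised to a 1-colour Agilent array for mRNAs and long non-coding RNAs.

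Levels are log2 spot intensity relative to the 75th percentile of the same array, so that a level of 0 is that percentile and 1 unit is a 2-fold step. Differences are adult minus P10 on this log2 scale, with the standard error (SE) of the limma fit. Adult arrays 2 and 3 differed by about as much as repeated spots of a probe do and were counted as 1 sample, as were P10 arrays 1 and 2. This gives n = 2 per stage. Other forms of that check grouped the P10 arrays differently, as described under the processing. The labels call them separate rats and pools, so the spread behind the p-values may be partly technical. By the scan times in the file headers, adult array 1 was scanned together with the P10 arrays (called slide 1 here), and adult arrays 2 and 3 in another scan (slide 2). On each array 17829 to 18731 of 24684 probes were well above background and 0 spots were saturated. The number of arrays limits the precision of every difference.

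In a gap junction, a ring of connexins in one membrane docks with a ring in the next cell, and ions and small metabolites pass between the cells. Gjd2 is the connexin gene of beta cells, the insulin-secreting cells, where it is known for coupling that synchronises calcium waves and insulin release. The exocrine acinar cells around the islets use other connexins, chiefly Gjb1 and Gjb2, and blood vessels use Gja1, Gja4 and Gja5. The usual names come from the size of the protein, and RefSeq lists Gjd2 as Cx36, Gja1 as Cx43, Gja5 as Cx40, Gjb1 as Cx32 and Gjb2 as Cx26.

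The 250 bases before the transcript start are printed for the 3 members with the widest differences between the stages, because Gjd2 moved one way and Gjb1 and Gjb2 the other. They come from RefSeq on GRCr8, run 5′ to 3′ in the direction of transcription, and carry in capitals the matches to the 5 motifs searched on both strands. These were CAGCACC (the first part of the RE1 element bound by the repressor Rest), GGGCGG (the GC box of Sp1), GTTAAT (part of the HNF1 site), TGAGTCA (the AP-1 site of Fos and Jun) and CANNTG (the E-box that Neurod1 and other helix-loop-helix factors bind).
Gjd2 (chr3:121229368-121229617, minus strand): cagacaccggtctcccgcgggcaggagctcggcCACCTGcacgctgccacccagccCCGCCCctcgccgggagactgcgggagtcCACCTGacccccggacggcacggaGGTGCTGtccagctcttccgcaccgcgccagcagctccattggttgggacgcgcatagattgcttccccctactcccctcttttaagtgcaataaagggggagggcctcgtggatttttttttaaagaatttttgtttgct
Gjb1 (chrX:70541595-70541844, plus strand): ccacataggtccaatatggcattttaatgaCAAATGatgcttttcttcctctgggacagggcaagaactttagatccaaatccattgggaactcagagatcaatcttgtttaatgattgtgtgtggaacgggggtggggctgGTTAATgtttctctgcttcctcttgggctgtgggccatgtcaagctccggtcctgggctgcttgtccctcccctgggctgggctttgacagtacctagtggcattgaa
Gjb2 (chr15:35381954-35382203, minus strand): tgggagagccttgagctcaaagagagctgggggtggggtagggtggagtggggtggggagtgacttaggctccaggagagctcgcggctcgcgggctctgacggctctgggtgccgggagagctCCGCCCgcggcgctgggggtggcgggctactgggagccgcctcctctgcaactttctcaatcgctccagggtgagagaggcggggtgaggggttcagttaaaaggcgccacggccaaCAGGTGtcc

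The Gjd2 window held CAGCACC on the opposite strand, 141 to 135 bases before the start, where it reads GGTGCTG. Of all 33469 promoter windows of this length, 5.43% held CAGCACC. It also held 1 GGGCGG, likewise on the opposite strand, and 2 E-boxes, which 30.5% and 65.5% of windows held at least once. The Gjb1 window held GTTAAT 108 to 103 bases before the start, which 6.45% of windows had, and an E-box 220 to 215 bases before the start. Gjb2 had a GGGCGG on the opposite strand and an E-box 9 to 4 bases before its start. Among the others with a window, Gja1 had TGAGTCA 58 to 52 bases before the start, a motif in 4.05% of windows, and Gja4 and Gja5 each had a GGGCGG. Gja1 and Gja4 also held an E-box each. A match describes the letters only, and 6 of the 7 members had a window.

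Of the 7 connexins, 2 were higher in adult islets (Gjd2 and Gja5), 2 were lower (Gjb1 and Gjb2) and 3 did not pass the test (Gja1, Gja4 and Gjb5). Among all 12540 protein-coding probes tested the same limma fit called 23.6% higher and 28.8% lower, 52.3% either way, so a call in 4 of 7 members is near the share over the array. In probes this was 2957 higher and 3607 lower, or 3748 and 3408 after quantile normalization. By size, the Gjd2 difference lay at percentile 98.7 of all protein-coding differences, Gja5 at 90.4, Gjb1 at 5.64 and Gjb2 at 2.04. The median of all tested probes was -0.23 by this scaling and -0.02 after quantile normalization. All 7 members were well above background on every array.

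**Figure D1:**
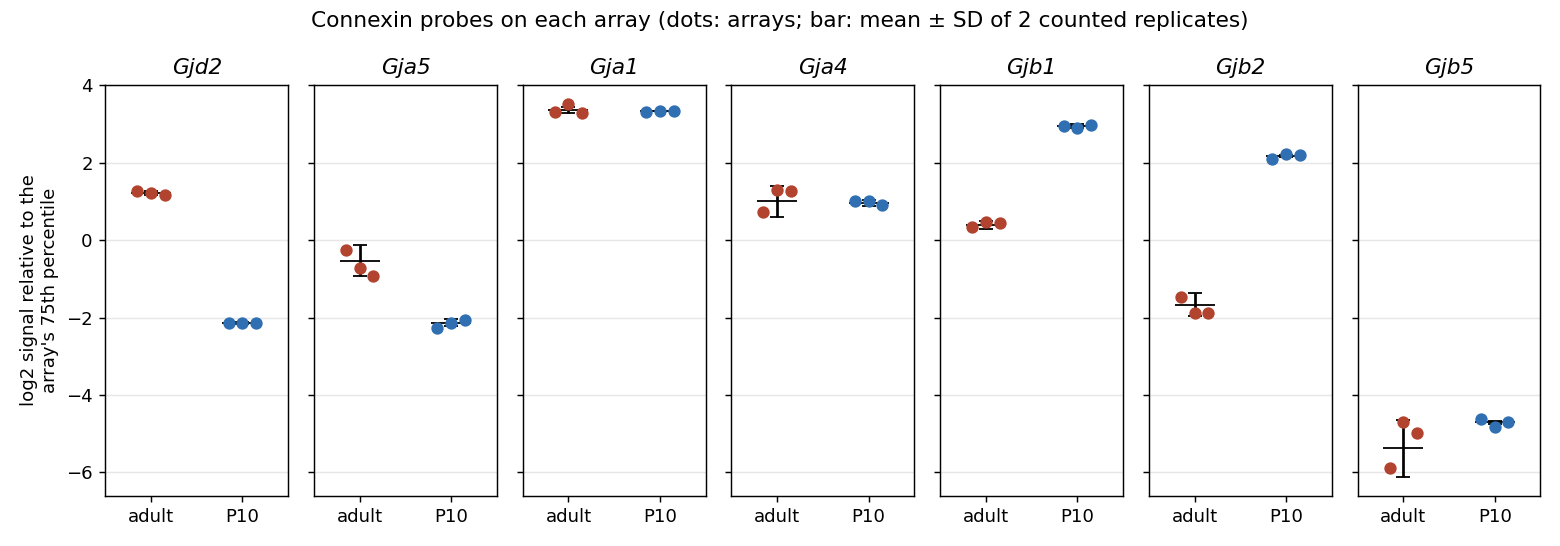
Level of each connexin probe on each array, as log2 signal relative to the 75th percentile of the array, with adult islets left of P10 islets. Dots are arrays and the bar with whiskers is the mean ± SD of the 2 counted replicates. Adult and P10 arrays are apart for Gjd2, Gja5, Gjb1 and Gjb2 and overlap for Gja1, Gja4 and Gjb5.

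Gjd2, the beta cell connexin, was the connexin with the steepest rise. Its levels were 1.26, 1.21 and 1.17 on adult arrays 1, 2 and 3, against -2.15, -2.15 and -2.13 on P10 arrays 1, 2 and 3. Every adult array was above every P10 array, and arrays of one stage lay close together. In spot intensity before scaling this was 6280, 4740 and 4400 in adult islets, against 228, 218 and 229 at P10. Gjd2 averaged 1.23 ± 0.05 in adult and -2.14 ± 0.02 in P10 islets (SD, n = 2 each). The difference was 3.37 (SE 0.13, 95% interval 3.01 to 3.73), a level 10.3-fold higher in adult islets, with a limma adjusted p of 0.00132. On slide 1 alone, which holds 1 adult array, it was 3.40.

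Most beta cell markers, though not the insulin genes, were higher in adult islets too. Of 9 tested, all well above background on every array, 6 were higher and 1 lower in adult islets (7 and 0 after quantile normalization), with a median difference of 2.67, against -0.13 over all named genes. The lower one was the insulin gene Ins1, at -0.93 (limma adjusted p = 0.0248), or 0.18 after quantile normalization (limma adjusted p = 0.291). Ins2 at -0.58 (limma adjusted p = 0.23) and the amylin gene Iapp at 0.47 (limma adjusted p = 0.109) did not pass. After quantile normalization Ins2 stood at 0.45 (limma adjusted p = 0.183) and Iapp at 1.5 (limma adjusted p = 0.00158). Beside the widest 2, these 3 were named after their values were seen. The widest were Glp1r, the receptor of the incretin hormone GLP-1, at 3.19 and the glucose transporter gene Slc2a2 at 3.18. The summed level of the 9 markers, which the very bright insulin genes dominate, was 8.11 to 8.58 on adult and 8.37 to 8.52 on P10 arrays. The Gjd2 difference was more positive than that of each of the 9 markers, by 0.18 to 4.30. In RNA of whole islets, more cells of a type and more RNA per cell cannot be told apart, and the part of beta cell number in the Gjd2 difference was not tested. Neurons also use Gjd2, and of 8 Schwann cell and neuron markers 4 were higher and 1 lower (median 0.80), or 5 and 1 after quantile normalization. Their summed level was 2.38 to 2.60 on adult and 0.85 to 1.00 on P10 arrays.

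Gja5, a connexin of arterial endothelium, was the other gene that rose. Its levels were -0.25, -0.71 and -0.93 on adult arrays 1, 2 and 3, against -2.27, -2.14 and -2.06 on P10 arrays 1, 2 and 3. The stages did not overlap, but the adult arrays spread more than the P10 arrays, with the array of slide 1 highest. Gja5 averaged -0.53 ± 0.40 in adult and -2.13 ± 0.10 in P10 islets (SD, n = 2 each). The difference was 1.60 (SE 0.24, 95% interval 0.91 to 2.29), or 3.03-fold higher, with a limma adjusted p of 0.011. Slide 1 alone gave 1.88, and the adult arrays of slide 2 against P10 gave 1.32. Without P10 replicate 3 the difference was 1.67 and the call was lost (limma adjusted p = 0.0504).

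Gja4, also a connexin of arterial endothelium, did not pass the test. Its levels were 0.72, 1.30 and 1.28 on adult arrays, against 1.02, 1.01 and 0.91 on P10 arrays. The adult array of slide 1 was the lowest of all 6 and the other adult arrays were the highest. The difference was 0.04 (SE 0.24, 95% interval -0.64 to 0.72, limma adjusted p = 0.895), and on slide 1 alone it was -0.24. Within arrays, Gja4 minus Gja5 moved by -1.56 in adult islets relative to P10, with no overlap of the stages.

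Vessel markers went both ways on these arrays. Of 8 endothelial markers 1 was higher, 1 lower and 6 did not pass (median 0.24), while quantile normalization gave 2 higher and 0 lower. The widest among these were the cadherin gene Cdh5 at -1.44 (limma adjusted p = 0.094) and the angiopoietin receptor gene Tek at 0.79 (limma adjusted p = 0.183), neither of which passed. Cdh5 was well above background on only 2 of 3 adult arrays and stood at -0.58 after quantile normalization (limma adjusted p = 0.174). Of 7 arterial markers 1 was higher and 3 lower (median -0.24), with the Notch ligand gene Jag1 at -0.94 and Notch1 at -0.90. Summed levels of the endothelial list were 5.47 to 5.74 on adult and 5.19 to 5.23 on P10 arrays, and those of the arterial list 2.14 to 2.23 and 2.59 to 2.64. The Gja5 difference was more positive than those of all 8 endothelial and all 7 arterial markers tested, as a description of these arrays.

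Gja1, the connexin of fibroblasts, smooth muscle and many other cells, did not pass the test. Its levels were 3.31, 3.53 and 3.29 on adult arrays, against 3.31, 3.35 and 3.33 on P10 arrays. Adult array 2 was the highest, and the rest lay together. The difference was 0.03 (SE 0.13, 95% interval -0.34 to 0.40, limma adjusted p = 0.868). By this scaling a change of more than 0.40 in either direction lies outside the interval. The bound depends on the scaling. Median scaling gave 0.33 (95% interval -0.12 to 0.78, limma adjusted p = 0.161), with no overlap of the stages. Smooth muscle and fibroblast markers went both ways on the same arrays, 4 higher and 3 lower of 7 tested (median 0.90). The contractile genes Cnn1 and Tagln stood at 2.14 and 1.93. The summed level of that list was 6.07 to 6.17 on adult and 6.77 to 6.86 on P10 arrays.

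Gjb1 and Gjb2, the connexins of acinar cells, and in the case of Gjb1 also of hepatocytes, were both lower in adult islets. The levels of Gjb1 were 0.33, 0.48 and 0.45 on adult arrays 1, 2 and 3, against 2.94, 2.89 and 2.98 on P10 arrays 1, 2 and 3. Each stage formed a tight group and the groups were far apart. Gjb1 averaged 0.40 ± 0.10 in adult and 2.95 ± 0.05 in P10 islets (SD, n = 2 each). The difference was -2.55 (SE 0.14, 95% interval -2.94 to -2.16), or 5.86-fold lower in adult islets, with a limma adjusted p of 0.0016. Slide 1 alone gave -2.62. Spot intensity before scaling was 3300, 2850 and 2670 in adult islets, against 7800, 7180 and 7910 at P10, so Gjb1 was lower before any scaling too, although the 75th percentile of log2 intensity was higher on the adult arrays (10.93 to 11.36) than on the P10 arrays (9.918 to 9.99).

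Gjb2 showed the widest difference of the 7 genes. Its levels were -1.46, -1.88 and -1.89 on adult arrays 1, 2 and 3, against 2.09, 2.23 and 2.20 on P10 arrays 1, 2 and 3. The stages did not overlap, and the adult array of slide 1 was the highest of the adult arrays. Gjb2 averaged -1.67 ± 0.30 in adult and 2.18 ± 0.03 in P10 islets (SD, n = 2 each). The difference was -3.86 (SE 0.20, 95% interval -4.41 to -3.30), or 14.5-fold lower, with a limma adjusted p of 0.00152. Slide 1 alone gave -3.65. Spot intensity was 951, 557 and 527 in adult islets, against 4340, 4540 and 4620 at P10.

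Markers of exocrine and intestinal cells were lower in adult islets on the same arrays. Of 11 acinar markers 0 were higher and 9 lower, with a median of -1.60, the acinar transcription factors Rbpjl and Ptf1a being widest at -6.12 and -4.08. After quantile normalization 1 was higher and 5 were lower, with a median of -0.52, while Gjb1 and Gjb2 stood at -2.56 and -3.84. The summed acinar level was 8.94 to 9.44 on adult and 10.5 to 10.6 on P10 arrays. With the 75th percentile subtracted, Gjb1 and Gjb2 each fell by more than 9 of the 11 acinar markers, Rbpjl and Ptf1a being the exceptions. Most of the 11 are very bright, and bright signals differed less between the stages before scaling. The 75th percentile of log2 intensity was 10.93 to 11.36 on adult and 9.918 to 9.99 on P10 arrays. The 99th was 15.93 to 16.31 and 15.6 to 15.61. Differences of very bright and dimmer genes are therefore not like for like.

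Duct and enterocyte markers were lower too. Of 5 duct markers 3 were lower and 1 higher (median -1.29), among them the chloride channel gene Cftr at -2.80 and the secreted phosphoprotein gene Spp1 at -2.35, with a summed level of 5.23 to 5.48 on adult and 6.26 to 6.33 on P10 arrays. Of 9 enterocyte markers all 9 were lower (median -9.96). The widest were the fatty acid binding protein genes Fabp1 and Fabp2, each well above background on 3 of 3 P10 arrays but on only 1 of 3 adult arrays. Their fitted differences of -15.87 and -14.53 thus rest in part on adult spots near background and do not give the size of the fall. The summed enterocyte level was 2.92 to 3.08 on adult and 8.13 to 8.21 on P10 arrays. Hepatocytes also use Gjb1 and Gjb2, and of 6 hepatocyte markers 3 were higher and 2 lower (median 0.84), with the urea cycle gene Cps1, which enterocytes also express, at -7.50 and Cyp2e1 at 1.94. The part of acinar, duct or intestinal cells in the Gjb1 and Gjb2 differences was not tested.

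**Figure D2:**
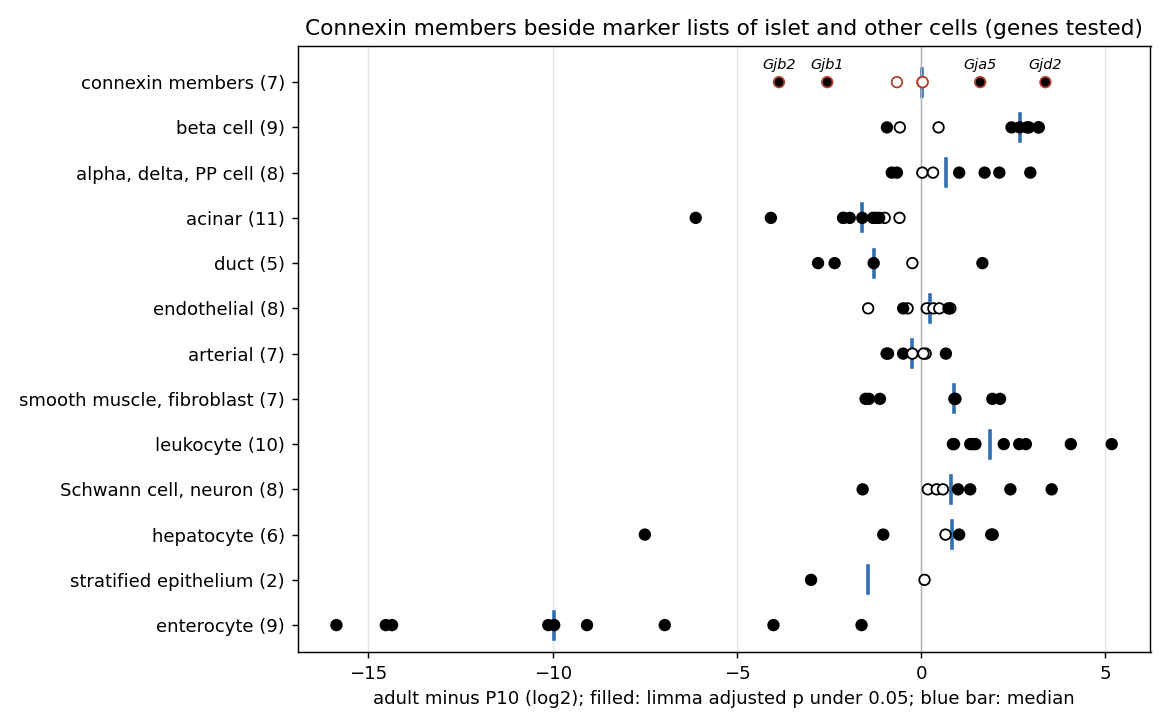
Adult minus P10 difference (log2, horizontal axis) of the 7 connexins in the top row and of the tested genes of each marker list in the rows below, with the number tested in brackets. Filled dots passed the limma test at an adjusted p of 0.05 and blue bars are medians. Gjd2 lies to the right with most beta cell markers, and Gjb1 and Gjb2 to the left with most acinar, duct and enterocyte markers.

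Gjb5, best known from skin and other stratified epithelia, was the dimmest of the 7 spots. Its levels were -5.90, -4.71 and -4.99 on adult arrays 1, 2 and 3, against -4.63, -4.84 and -4.69 on P10 arrays 1, 2 and 3. The stages overlapped, since adult array 2 lay among the P10 arrays while adult array 1 lay far below. Spot intensity was 44.0, 78.1 and 61.2 in adult islets, against 41.0, 33.9 and 38.7 at P10, so it was higher in adults before scaling. The difference was -0.66 (SE 0.40, 95% interval -1.77 to 0.45, limma adjusted p = 0.226). It was -0.09 after quantile normalization, while slide 1 alone gave -1.18 and passed the test (limma adjusted p = 0.0013). That call rests on adult array 1, assumed to vary like the P10 arrays. Of 2 stratified epithelium markers tested, the keratin gene Krt14 was lower at -2.99, and Krt1 stood at 0.09 (limma adjusted p = 0.77). Krt1 was well above background on only 1 of 3 P10 arrays. After quantile normalization it stood at 0.94 (limma adjusted p = 0.0647).

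**Figure D3:**
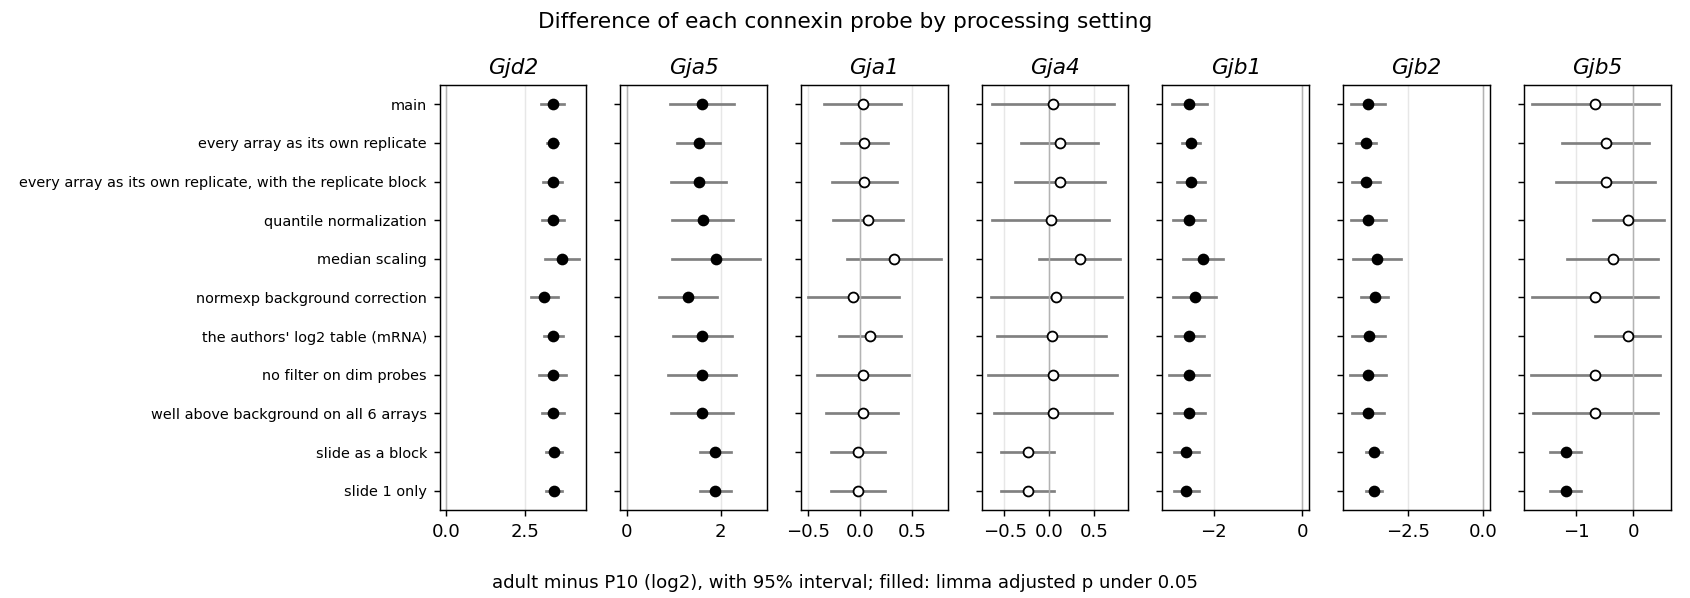
Adult minus P10 difference (log2, horizontal axes, each panel with its own range) of each connexin under 11 processing settings, with 95% intervals. Filled dots passed the limma test at an adjusted p of 0.05. Gjd2, Gja5, Gjb1 and Gjb2 keep their side of 0 in all settings drawn, and Gjb5 passes the test only with the slide as a block or on slide 1.

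Of connexins outside the list, Gja3, best known from the lens, stood at -1.27 (limma adjusted p = 0.0511) and Gjb6 of skin and cochlea at -0.17 (limma adjusted p = 0.415). Neither passed the test, and after quantile normalization they stood at -0.57 and 0.41 (limma adjusted p = 0.0566 and 0.239). Gja6 was not well above background on any array. On the GRCr8 map Gjb2 lies beside Gjb6 and near Gja3.

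Pannexins form channels of a similar build that open mainly to the outside of the cell. Panx2, best known from brain, was higher in adult islets at 2.11 (limma adjusted p = 0.00278). Panx1 was lower at -0.87 (limma adjusted p = 0.0219), but after quantile normalization it stood at -0.39 and did not pass (limma adjusted p = 0.0552). Panx3 was not well above background on any array.

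Differences between 2 connexin probes on one array are the same whichever constant is subtracted from that array, though quantile normalization and normexp can shift them. Set to 0 at the P10 mean, Gjd2 minus Gjb2 was 7.05, 7.41 and 7.39 on adult arrays 1, 2 and 3, against 0.07, -0.06 and -0.01 on P10 arrays 1, 2 and 3. Over the counted replicates the shift was 7.23, and for Gjd2 minus Gjb1 it was 5.92. Relative to the connexins that did not pass, Gjd2 shifted by 3.34 against Gja1, 3.33 against Gja4 and 4.03 against Gjb5, and relative to Gja5 by 1.77. Gjb1 and Gjb2 fell by unequal amounts, with Gjb1 minus Gjb2 shifted by 1.03, 1.59 and 1.58 on adult arrays, against 0.09, -0.10 and 0.02 on P10 arrays. With the 75th percentile subtracted, the stages overlapped in 1 of the 21 pairs of members, Gja1 with Gja4. The share over pairs of other probes was not computed. Since 52.3% of protein-coding probes were called, this count is not read as a trait of connexins. With quantile normalization, and also with normexp, they overlapped as well for the dim Gjb5 with Gja1 and with Gja4. Gjd2 minus Gjb5 shifted by 3.47 with quantile normalization and 3.77 with normexp.

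**Figure D4:**
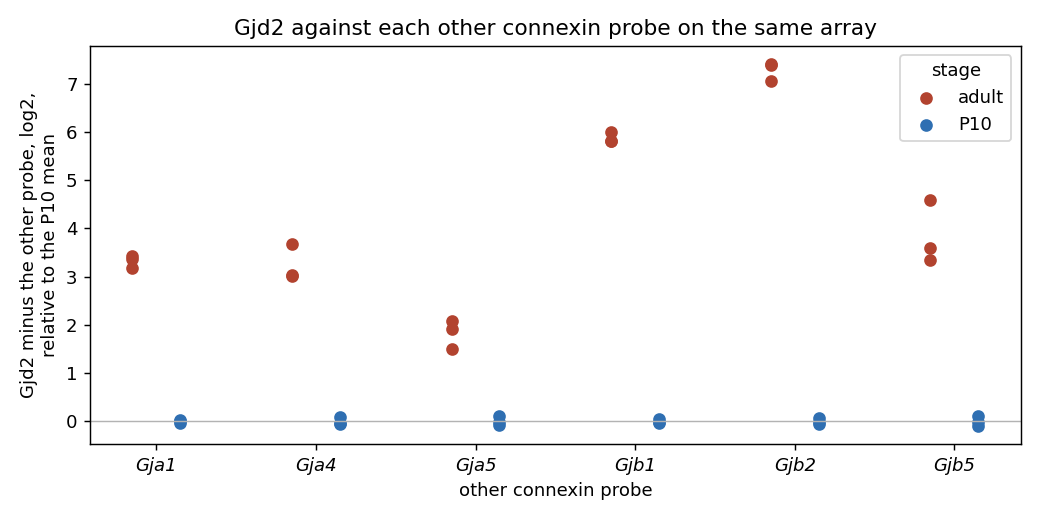
Level of Gjd2 minus that of each other connexin probe on the same array, in log2 relative to the P10 mean of that pair, with adult arrays left of P10 arrays. P10 arrays lie near 0 in every pair, and adult arrays reach 7.05 to 7.41 for Gjb2.

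Genes of proteins that bind, traffic or modify connexins moved both ways. Of 20 tested, 4 were higher and 4 lower (median 0.21), or 8 and 2 after quantile normalization. The beta tubulin gene Tubb3 was higher at 3.54 (limma adjusted p = 0.00172), and microtubules carry connexins to the membrane. Tubb3 is also the widest of the Schwann cell and neuron markers counted beside Gjd2. Ccn3, a matricellular protein that binds Gja1 protein, was higher at 2.90 (limma adjusted p = 0.00135). Prkce, a protein kinase C that phosphorylates connexins, was lower at -1.18 (limma adjusted p = 0.0494). It was about as dim as Gjb5, at -6.24 to -5.37 on adult and -4.73 to -4.43 on P10 arrays. Quantile normalization gave -0.57 (limma adjusted p = 0.0451), so the size of its difference depends on the scaling. A further 9 genes, of adherens junctions and islet cell adhesion, gave 3 higher and 3 lower. Efna5, an ephrin of contacts between beta cells, was at least 2.96-fold higher in adult islets, being not well above background at P10. It was tested because of its adult arrays alone, and its call is among the 3 higher. Ctnnb1, the beta-catenin that links cadherins to the cytoskeleton, was lower at -2.72 (limma adjusted p = 0.00202). Its probe was dim on adult arrays, at -5.49 to -5.03, against -2.55 to -2.38 on P10 arrays. After quantile normalization it stood at -2.36 (limma adjusted p = 0.00367).

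Transcription factors known from studies of connexin promoters were lower in 4 and higher in 2 of 8 cases (median -0.62). Neurod1, an islet factor that binds E-boxes, was higher at 2.45 (limma adjusted p = 0.00156). Nkx2-5, the cardiac factor, was lower at -1.54 (limma adjusted p = 0.027), and so was Fos of AP-1 at -1.37 (limma adjusted p = 0.0176). Nkx2-5 was dim, at -6.12 to -4.94 on adult and -4.17 to -4.1 on P10 arrays. With quantile normalization its difference was -1 (limma adjusted p = 0.0116). Rest, the repressor whose element is in part present in the Gjd2 window, was well above background on 0 of 3 adult and 2 of 3 P10 arrays and was not tested. Its levels were -8.01, -7.61 and -7.35 on adult arrays, against -6.20, -5.63 and -5.72 on P10 arrays.

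Some named genes had profiles over the 6 arrays almost equal to a member's, by the Euclidean distance of log2 levels after each gene's own mean was subtracted, among 11166 genes. Nearest to Gjd2 were Pln, Ccl7, Chrm4 and Upb1, at distances of 0.0723 to 0.141 and with differences of 3.33 to 3.45. Nearest to Gjb1 were Gpt, Mcm10, Tdrp and Scarf2 (0.132 to 0.16), with differences of -2.56 to -2.45. For Gjb2 they were Cdx2, a transcription factor of intestine, Gatm, Slc39a8 and Depdc7 (0.212 to 0.243), with differences of -4.01 to -3.69. Nearest to Gja1 were Mterf1, Hba-a3, Vps18 and Trip4 (0.0729 to 0.0972), with differences of -0.03 to 0.06. All 6 arrays share the stage difference, so genes with differences of like size and little spread lie close together on this measure.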

How the data were processed

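Per the labels' protocols, total RNA had been amplified into Cy3-labelled cRNA. Spot intensity values were deposited as scanner files. The submitters' processing notes name Agilent Feature Extraction 11.0.1.1. In these files, per the file headers, background had been subtracted from the processed intensity and arrays had not been scaled to each other. Normalized log2 tables were deposited by the authors as well, with a method not given in the sources used here. Once each column's median offset was removed, 99.99% of the 11062 mRNA entries lay within 0.05 log2 of quantile-normalized processed signals.

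Of 42136 spots per array that were not controls, flagged outliers were left out and log2 values of a probe's spots averaged. The 75th percentile of each array was subtracted. The 18362 probes that every array of a stage measured well above background were tested with limma 3.58.1 (R 4.3.3) and Benjamini-Hochberg adjustment over them, at a threshold of 0.05. The fit was tested on simulated data. Genes were named by RefSeq accession through a GRCr8 gene table, and the brightest probe of a gene was used. The array annotation uses an older build. Where a stage was not well above background, the fold was taken against the lowest well-measured signal of each array, and is approximate.

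Arrays of a stage were compared over 1009 probes printed 3 times with mean log2 intensity over 9. The variance between arrays, divided by that predicted from spots, was 0.978 between adult arrays 2 and 3. Between P10 arrays 1 and 2 it was 0.871, and pairs up to 1.1 were counted as 1 sample. The other adult pairs gave 40.7 and 39.7, and the other P10 pairs 2.32 and 1.54. This form was settled after several had been tried on the data, and it is the grouping named in earlier work on them. Over 2947 probes of any brightness the ratio was 1.10 between adult arrays 2 and 3, while the P10 pairs gave 0.757, 0.96 and 0.89, which with a limit of 1 makes the P10 arrays 1 sample and the adult arrays 3. Over 170 genes with 2 probes, the differences between P10 arrays 1 and 2 at one probe correlated with those at the other (rho 0.21, across genes), and those between adult arrays 2 and 3 at 0.10, although spot noise is independent between probes. Fits for the other groupings were run as alternatives.

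The genes named are all members, the other connexins and pannexins with a probe, Rest, the 4 largest and 4 smallest differences called among partners, adhesion genes and transcription factors, the 2 widest of each marker list (leukocyte, endocrine and neuronal pairs are given with the closing values), and the 4 nearest profiles of 4 members. Some genes that this rule picks are not reported here. Members and lists were chosen with earlier results of these data known. Alternatives were quantile and median scaling, normexp with an offset of 50 on the median spot intensity (the mean signal was not used here), the authors' tables, the filter on dim probes, the slide, the replicates counted and leaving out each array. Replicate numbers did not pair the samples: deviations of same-numbered arrays from their stage means correlated at -0.21, 0.076 and -0.24.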

Additional observations from a re-analysis of the deposited data

How the results depend on the processing

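Gjd2, Gjb1 and Gjb2 kept their direction and their call in all 20 alternatives run, with differences of 3.10 to 3.67, -2.65 to -2.25 and -4.09 to -3.56 and limma adjusted p-values up to 0.00801, 0.014 and 0.00767. Gja5 kept its direction in all 20 (1.31 to 1.90) and lost its call in 1, without P10 replicate 3. Leaving out each array in turn thus gave 1 to 2 members higher, and 2 lower throughout. The 20 alternatives are not separate checks, since the filters on dim probes left each difference unchanged and both fits with the slide gave the same one. The other 3 members, Gja1, Gja4 and Gjb5, were near 0 or imprecise and changed sign in places. Without each array in turn Gja1 ranged from -0.03 to 0.09 and Gja4 from -0.01 to 0.33. With median scaling Gja1 stood at 0.33 and Gja4 at 0.34, and neither passed (limma adjusted p = 0.161 and 0.151). Gja1 stood at -0.06 with normexp, -0.02 with the slide as a block, -0.02 on slide 1 only and -0.03 without adult replicate 2. Gja4 stood at -0.24 with the slide as a block, -0.24 on slide 1 only, -0.28 on slide 1 with quantile normalization and -0.01 without P10 replicate 3. Gjb5 stood at 0.03 with quantile normalization of every array as its own replicate and at 0.17 with quantile normalization without the adult array of slide 1. Both fits with the slide, which use 1 adult array, called 3 members lower, Gjb5 being the third at -1.18. Over the array the counts of protein-coding probes moved more. Higher probes numbered 1707 with normexp, and under quantile normalization 4601 with every array counted, 4708 on slide 1 and 4637 without its adult array. Lower probes numbered 1959 with normexp, 5587 with the slide as a block and 5588 on slide 1 only. Leaving out each array gave 1189 to 4281 higher and 1528 to 4794 lower, the lowest of both without P10 replicate 3, which leaves 1 counted P10 sample, assumed to vary like the adult ones. The causes of the other shifts were not tested. With every array as its own replicate, 2 members were higher and 2 lower, and 3955 and 4729 protein-coding probes; the replicate block by number gave 2 and 2, and 3494 and 4228, and the samples share only a number. With the P10 arrays as 1 sample and the adult arrays as 3, limma again called 2 members higher and 2 lower, Gja5 with an adjusted p of 0.0346. That fit and the 3 that combine quantile normalization with another choice were added after the data had been seen. Median scaling called 3800 protein-coding probes higher and 2791 lower. No gene of the list had another probe to try. Gjb5 lay near the lower end of measured signals, which limits its precision.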

Other observations

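Leukocyte markers were higher in adult islets in all 10 cases tested, with a median of 1.85. Among all protein-coding probes tested the same limma fit called 23.6% higher. Cd79b of B cells and Itgam of myeloid cells, not well above background at P10, were at least 13.5-fold and 14.2-fold higher. Both are counted in the 10 but were tested because of their adult arrays alone. The summed level of 9 of these markers was 4.03 to 4.23 on adult and 2.68 to 2.74 on P10 arrays. Of 8 markers of alpha, delta and PP cells, the other endocrine cells, 4 were higher and 2 lower (median 0.67), or 5 and 1 after quantile normalization, with the transcription factor gene Irx2 at 2.12. Elavl4, a neuronal RNA-binding protein gene that endocrine cells also express, stood at 2.42. Outlying arrays were not tested for, since each stage has 3.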
